A study of Mus musculus with 9 samples.

Results

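Smooth muscle cells and pericytes are the contractile and supporting cells of blood vessels, and their genes were followed here in mouse thigh muscle. The group is 10 genes: Acta2, Myh11, Tagln, Cnn1, Myl9 and Lmod1 of the contractile apparatus, and Pdgfrb, Cspg4, Rgs5 and Notch3 of pericytes and vessel wall signalling. They were taken by name from the platform annotation, out of 18193 genes named by the array's probe sets, and 19 probe sets read them. Of the 10 genes, 8 passed the filter on dim probe sets (log2 above 5 in at least 3 arrays) and were tested among 9697 genes. The probe set tested for each of these 8 genes lay above 5 in all 9 arrays, so none of them passed through 1 group only. Cnn1 and Lmod1 were dim in every array and did not pass.

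The tissue was the quadriceps femoris, from females, with 3 arrays in each of 3 groups (9 samples, 1 array each). All mice carried the strain label C57Bl/6 HT transgenic, and the series concerns a self MHC class I protein over-expressed in skeletal muscle, with expression started by taking mice off doxycycline. Control mice stayed on doxycycline and were killed at 35 days of age; early mice came off it at 21 days and were killed at 35 days; late mice came off it at 35 days and were killed at 50 days. The protocol describes the controls as single transgenic littermates, while their strain label is that of the induced mice, so their genotype is not settled. Late mice were older than the controls and the early mice, so age and induction cannot be told apart in the late comparisons. In both comparisons with controls, induction cannot be told apart from the removal of doxycycline. The same holds for a difference in genotype, if there was one. The promoter that drives the transgene is not given in the sources used here.

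Vascular smooth muscle sits around arteries and arterioles and sets their diameter, while pericytes wrap capillaries and small venules. The contractile genes are driven by serum response factor with its partners of the myocardin family, which bind short A/T-rich elements called CArG boxes in their control regions. Pericytes are recruited by PDGF-B released from endothelium, which acts on the receptor encoded by Pdgfrb, and Notch3 is the Notch receptor of mural cells. Skeletal muscle holds a dense capillary bed, so these genes are read there against a large excess of fibre RNA. In such bulk samples fewer cells of a type and less RNA per cell cannot be told apart.

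Promoter sequence was available for 7 of the 10 genes, from RefSeq on build GRCm38.p6. The 250 bases before the annotated start are shown for Acta2 and Myl9, because these genes and Myh11 had the largest negative differences of early mice from controls. Capitals mark CArG boxes, CArG-like stretches in which 1 of the 6 central bases is not A or T, and the MCAT element (CATTCC, or GGAATG on the opposite strand), which binds TEAD factors. The windows are chr19:34255374-34255623, minus strand, for Acta2 and chr2:156775214-156775463, plus strand, for Myl9.
Acta2: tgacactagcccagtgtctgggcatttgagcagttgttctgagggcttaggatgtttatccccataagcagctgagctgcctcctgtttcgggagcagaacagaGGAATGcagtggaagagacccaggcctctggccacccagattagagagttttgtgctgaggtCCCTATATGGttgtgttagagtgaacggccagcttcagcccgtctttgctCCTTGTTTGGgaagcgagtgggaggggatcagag
Myl9: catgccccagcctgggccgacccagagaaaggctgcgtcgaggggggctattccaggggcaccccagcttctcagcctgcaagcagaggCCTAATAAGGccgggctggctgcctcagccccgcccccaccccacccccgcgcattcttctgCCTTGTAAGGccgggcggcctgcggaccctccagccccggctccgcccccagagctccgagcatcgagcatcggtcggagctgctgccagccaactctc

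Both windows hold CArG-like letters. Myl9 had a full CArG box, CCTAATAAGG, which begins 161 bases before the start, and a CArG-like stretch, CCTTGTAAGG, 99 bases before it. Acta2 had no full box but held the CArG-like stretches CCCTATATGG and CCTTGTTTGG, 84 and 34 bases before the start, and an MCAT element 146 bases before it. The CArG pattern is the same on both strands, though the bases of a single box need not be. Of all 32851 promoter windows of this length, 1.47% held a full box, 7.24% a CArG-like stretch and 12.6% an MCAT element. Among the 7 genes 1 had a full box, 2 a CArG-like stretch and 2 an MCAT element, the second of these being Lmod1. These matches describe the letters and were not tested against the expression values.

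Acta2, the actin of vascular smooth muscle, was read by a probe set whose name ends in _s_at, the mark of a set that can match more than 1 transcript. Its log2 values were 11.52, 11.39 and 11.74 in controls 1, 2 and 3, 10.56, 11.02 and 10.93 in early mice, and 11.27, 11.44 and 11.13 in late mice. The early arrays all lay below the lowest control and the lowest late array, while late and control arrays overlapped. The early mean was 1.64-fold below the control mean on this scale (-0.72 ± 0.17, log2 difference ± SE; 95% interval -1.10 to -0.33), which did not pass (adjusted p = 0.1, limma over all genes). Late mice differed from controls by -0.27 ± 0.17 (adjusted p = 0.439) and early from late mice by -0.44 ± 0.17 (adjusted p = 0.107). The other 2 Acta2 probe sets were dim, between 2.21 and 3.397 in all arrays.

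Myl9, the regulatory light chain of smooth muscle myosin, had the lowest early value of the group against controls. Controls stood at 10.31, 10.20 and 10.31, early mice at 8.998, 9.03 and 9.86, and late mice at 9.45, 9.65 and 9.52. Every early and every late array lay below every control. Early mice differed from controls by -0.98 ± 0.22, a 1.97-fold lower level (adjusted p = 0.0896), and late mice by -0.73 ± 0.22 (adjusted p = 0.171), and neither difference passed. Early 3 stood above the other early arrays, toward the controls, and early and late mice overlapped (-0.24 ± 0.22, adjusted p = 0.458).

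Myh11 encodes the smooth muscle myosin heavy chain and is the most specific marker of mature smooth muscle. It was the 1 gene of the group with a difference that passed (limma over all genes), between early and late mice, which also differed in age. Its values were 7.99, 7.67 and 8.05 in controls, 7.31, 7.24 and 7.38 in early mice, and 8.78, 8.55 and 8.43 in late mice. The 3 groups did not overlap: early lay lowest, controls between and late highest. Early mice were 2.42-fold below late mice (-1.28 ± 0.15; 95% interval -1.62 to -0.93; adjusted p = 0.00578), and this difference passed in all 19 alternative analyses (adjusted p = 0.00113 to 0.0454). Against controls the early difference was -0.59 ± 0.15 (adjusted p = 0.126) and the late difference 0.69 ± 0.15 (adjusted p = 0.101), on opposite sides and neither past the test. A second Myh11 probe set lay between 2.27 and 2.46 in all arrays, near the bottom of the scale.

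Tagln, which encodes the actin-binding protein transgelin (SM22), stood at 9.53, 9.29 and 9.79 in controls, 9.22, 8.90 and 9.44 in early mice and 9.77, 9.66 and 9.30 in late mice. All 3 groups overlapped. The early difference from controls was -0.35 ± 0.20 (adjusted p = 0.377; 95% interval -0.81 to 0.11), and the late difference was 0.04 ± 0.20 (adjusted p = 0.94). Cnn1, which encodes calponin, another actin-binding protein, and Lmod1, a nucleator of actin filaments in smooth muscle, were read by 1 probe set each. Cnn1 ranged from 3.49 to 4.21 and Lmod1 from 2.75 to 3.67 over the 9 arrays, under the floor of 5 throughout. With no filter on dim probe sets Cnn1 differed by -0.17 and Lmod1 by -0.32 in early mice against controls, on values that are all under the floor.

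**Figure D1:**
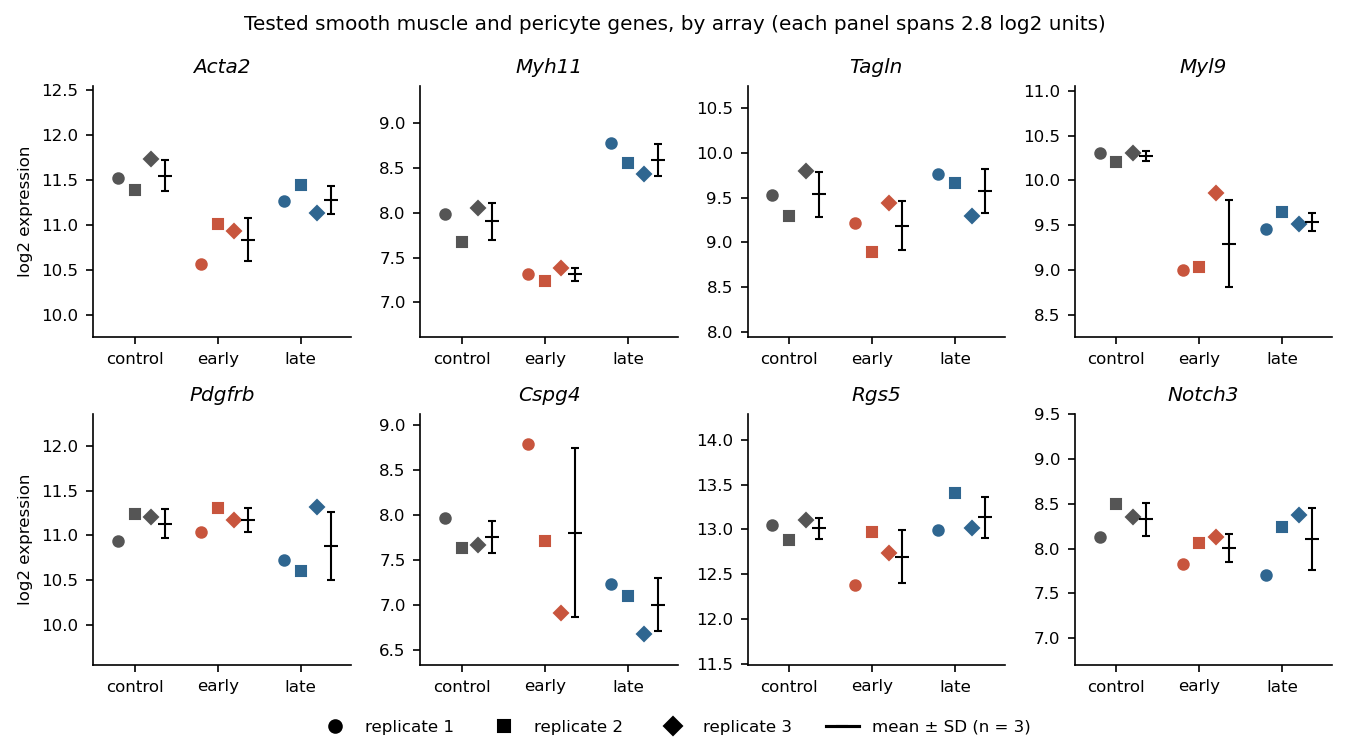
Log2 expression of the 8 tested genes on each of the 9 arrays, with groups on the horizontal axis, 1 symbol per replicate and the mean ± SD (n = 3) in black. Early Myh11, at 7.24 to 7.38, lies below all controls and late Myh11, at 8.43 to 8.78, above them; early Acta2 and Myl9 lie below all controls, and Cspg4 spreads widely in early mice.

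Pdgfrb, the PDGF receptor of pericytes, gave overlapping groups. Its brighter probe set gave 10.94, 11.24 and 11.21 in controls, 11.04, 11.30 and 11.17 in early mice and 10.73, 10.60 and 11.31 in late mice. The early difference was 0.04 ± 0.20 (adjusted p = 0.927), with a 95% interval from -0.41 to 0.50 that still allows a level 1.41-fold higher. Its dimmer probe set gave 0.18 for the same comparison, and 0.01 for late mice against -0.25 on the brighter one.

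Notch3 averaged lower than controls in both induced groups, and neither difference passed. Controls stood at 8.13, 8.50 and 8.35, early mice at 7.83, 8.07 and 8.13, and late mice at 7.71, 8.24 and 8.37. Controls overlapped with late mice and met the early mice at their edge. The differences were -0.32 ± 0.20 for early (adjusted p = 0.405) and -0.22 ± 0.20 for late mice (adjusted p = 0.601). A second Notch3 probe set, close to the floor at 5.30 to 5.83, gave -0.22 and -0.21 (adjusted p = 0.531 and 0.591, limma over all probe sets). On it every early and every late array lay below every control, the highest at 5.38 and the lowest control at 5.39. Of all genes tested 13.9% and 14.9% lay below all controls in these comparisons.

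Cspg4 encodes the proteoglycan NG2 of pericytes and other progenitor cells. It gave 7.96, 7.64 and 7.67 in controls, 8.79, 7.72 and 6.91 in early mice and 7.23, 7.10 and 6.67 in late mice. The early arrays ran from above every control to below every control, while all late arrays lay below all controls. The late difference was -0.76 ± 0.41 (adjusted p = 0.375), and the early difference was 0.05 ± 0.41 (adjusted p = 0.959). The dimmer Cspg4 probe set gave the same order of the early arrays, at 6.73, 5.79 and 4.86, and a late difference of -1.08 (adjusted p = 0.565 over all probe sets). Over the 9 arrays the 2 probe sets had a Pearson correlation of 0.81, as a description. The slow fibre genes, 8 of 8 tested, lay 3.06, -0.24 and -3.15 from their control mean (medians) in early 1, 2 and 3. They lay at 3.85, 3.50 and -0.95 in late 1, 2 and 3. Within each of these groups the order of the arrays was that of the brighter Cspg4 probe set. The dimmer set kept this order in early mice. In late 1, 2 and 3 the dimmer set stood at 4.07, 4.60 and 5.16, which was the opposite order. In controls 1, 2 and 3 the medians were -0.08, -1.14 and 1.23, which was not the order of Cspg4. Against controls the slow fibre genes were higher in late mice (median 2.18), whereas Cspg4 was lower. The part of the slow fibre genes in the Cspg4 values was not tested.

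Rgs5, a regulator of G protein signalling that is abundant in pericytes, had 4 passing probe sets that split into pairs. The brightest, 1417466_at, which stood for the gene in the tests, gave 13.05, 12.88 and 13.11 in controls, 12.38, 12.97 and 12.74 in early mice and 13.00, 13.40 and 13.01 in late mice. On it early mice lay below late mice (-0.44 ± 0.19, adjusted p = 0.139), and neither group differed from controls past the test (-0.31 ± 0.19, adjusted p = 0.388, for early; 0.12 ± 0.19, adjusted p = 0.771, for late). Probe set 1420942_s_at moved with it over the arrays (Pearson r = 0.90, n = 9) and was 0.75 higher in late mice than in controls.

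The other pair ran the opposite way in late mice. Probe set 1420941_at gave 11.82, 11.11 and 10.78 in controls, 11.61, 10.62 and 11.32 in early mice and 9.82, 10.45 and 10.02 in late mice. Every late array lay below every control and every early array. The late difference was -1.14 on this set and -0.89 on 1420940_x_at (adjusted p = 0.308 and 0.364 over all probe sets naming 1 gene, of which 0.0887% passed in this comparison, 0.129% in early against control and 2.11% in early against late), and these sets correlated with each other (r = 0.96) and inversely with 1417466_at (r = -0.49 and -0.50). The gap between 1420941_at and 1417466_at was -1.23, -1.77 and -2.33 in controls, -0.77, -2.35 and -1.42 in early mice and -3.17, -2.95 and -2.99 in late mice. The late arrays lay below all the others in this gap, which was looked at because the sets ran opposite ways and is given as a description. The sign of the late difference of Rgs5 thus differed between probe sets, and on none of the 4 did it pass.

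**Figure D2:**
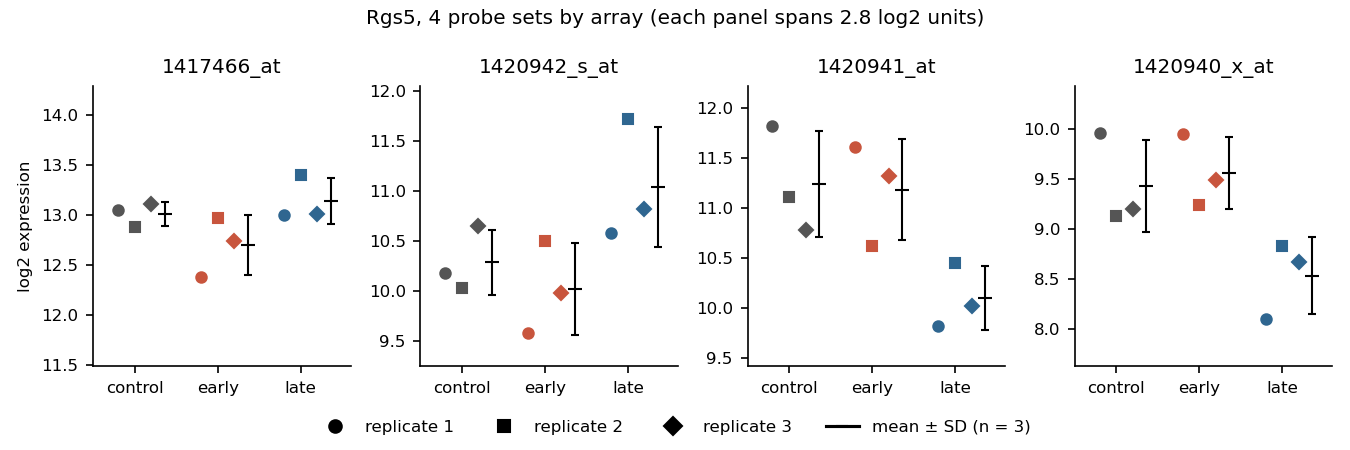
Log2 expression of the 4 passing Rgs5 probe sets on each array, by group, with the mean ± SD (n = 3) in black. In late mice 1417466_at and 1420942_s_at stand at or above the controls on average, by 0.12 and 0.75, while 1420941_at and 1420940_x_at lie below every control array, by 1.14 and 0.89 on average.

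Measures of RNA quality did not all move one way in the late group. Probe sets for the 3' part of the transferrin receptor transcript read 2.32 to 2.82 above those for its 5' part in late mice, against 0.997 to 1.66 in controls and 0.0676 to 2.06 in early mice. A probe set for the 5' part of 18S ribosomal RNA stood at 5.15 to 7.59 in late mice, 8.11 to 11.02 in controls and 8.09 to 14.23 in early mice. For pyruvate carboxylase the 3' sets read 4.45 to 5.59 above the 5' sets in late mice, 5.22 to 6.22 in controls and 4.32 to 5.39 in early mice, so that late and control arrays overlapped with the late ones lower on the whole. The 3' and 5' sets differed by -0.06 to 0.07 for beta-actin and by -0.18 to 0.02 for Gapdh over all arrays, with overlapping groups. The part of these measures in the late values of Rgs5, Cspg4 and the other genes was not tested.

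The early comparison sets induced muscle, off doxycycline, against muscle of equal age without induction, still on doxycycline and of a genotype that is not settled. Of the 8 genes tested, 0 passed by limma, where 1.19% of all genes did (0.258% lower and 0.928% higher). At an unadjusted p under 0.05, 3 of the 8 were lower (Acta2, Myh11 and Myl9) and 0 higher, against 9.89% and 8.64% of all genes. The same 3 genes were those whose early arrays all lay below all controls, which 13.9% of all genes did; 0 lay above all controls, which 9.63% did. Of the 8 genes 6 had negative differences, as did 54.1% of all genes, with a median of -0.33, beside -0.03 over all genes tested. The median of the 8 genes was -0.54, -0.40 and -0.34 relative to the control mean in early 1, 2 and 3, so no early array stood apart in sign.

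The calls depended on 1 array. Without early 3, Acta2, Myh11 and Myl9 passed (adjusted p = 0.0289, 0.0392 and 0.000982), and so did 18.1% of all genes. Over all alternative analyses the adjusted p ran from 0.0145 to 0.36 for Acta2, from 0.01 to 0.374 for Myh11 and from 0.000527 to 0.292 for Myl9. With arrays weighted by their spread 4 of the 8 genes passed, Tagln being the fourth (adjusted p = 0.047, over all its alternatives 0.047 to 0.704), beside 34.4% of all genes.

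In late mice 0 of 8 genes passed against controls by limma, where 0.206% of all genes did (0.113% lower and 0.0928% higher). At an unadjusted p under 0.05 Myl9 was lower and Myh11 higher, against 8.44% lower and 8.82% higher of all genes. Myl9 and Cspg4 lay below all controls and Myh11 above them, where 14.9% and 16% of all genes did so. Of the 8 differences 5 were negative, beside 48.8% over all genes, with a median of -0.23 beside 0.0095. Without early 3, which enters through the shared spread, Myl9 passed (adjusted p = 0.0447; 0.017 to 0.405 over all alternatives), beside 0.599% of all genes. With array weights Myl9 and Myh11 passed (adjusted p = 0.017 and 0.022; for Myh11 up to 0.343 over all alternatives), beside 10.7% of all genes. The median was -0.11 without late 1, the late array with the lowest median of the group at -0.34.

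Between early and late mice, 1 of 8 genes passed, Myh11, which was lower in early than in late mice, as were 6.23% of all genes; 5.31% were higher and 11.5% passed in either direction. At an unadjusted p under 0.05, Acta2, Myh11 and Rgs5 were lower, and 0 were higher, against 18.4% and 15.8% of all genes. These 3 genes were also those whose early arrays all lay below all late arrays, as 18.3% of all genes did; 0 lay above, as 13.7% did. Of the 8 differences 6 were negative, beside 53% over all genes, with a median of -0.32 beside -0.03. The early and late comparisons share the same controls, so their values are set side by side only. Without early 3, Cspg4 (1.25, adjusted p = 0.0206) and Myl9 (-0.52, adjusted p = 0.018) passed as well, beside 30.6% of all genes; with array weights the same 3 genes passed (Cspg4 at 0.026, Myl9 at 0.025), beside 36.4%. Over all alternatives the adjusted p reached 0.519 for Cspg4 and 0.833 for Myl9.

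**Figure D3:**
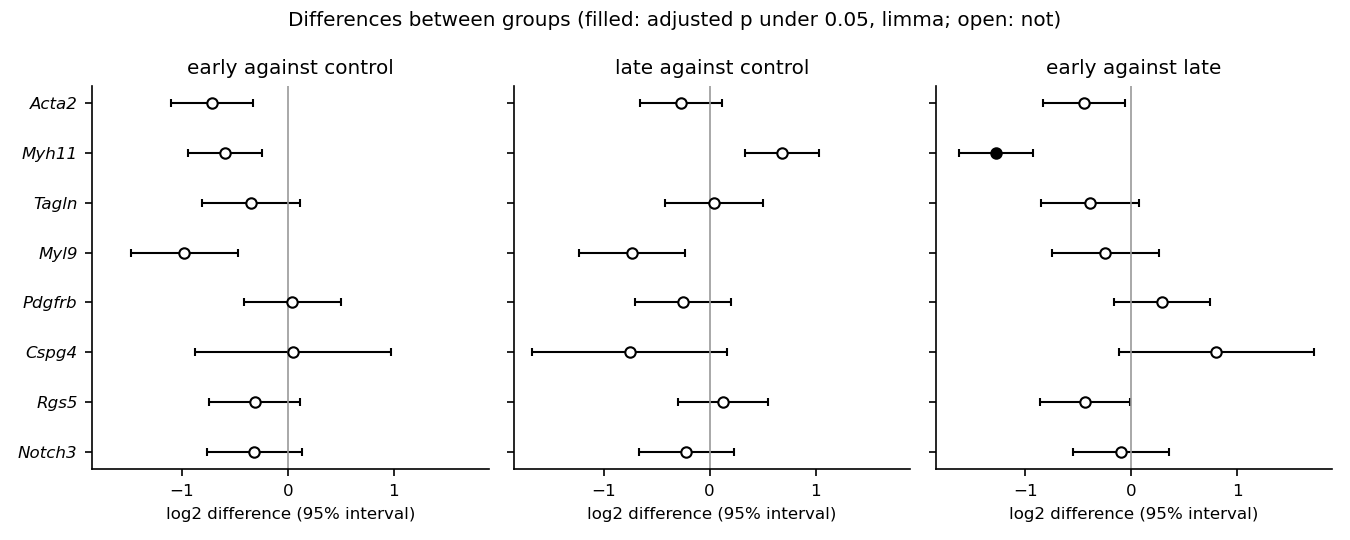
Log2 differences with 95% intervals for the 8 tested genes in the 3 comparisons, filled where the adjusted p was under 0.05. Myh11 between early and late mice (-1.28) is the 1 filled point; the intervals of Acta2, Myh11 and Myl9 in early mice against controls lie below 0 before adjustment.

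The genes of the group varied together only in part. Over the 9 arrays Acta2 correlated most with Rgs5 and Myl9 (both r = 0.79) and Myh11 with Tagln (0.71), whereas Pdgfrb ran against Tagln (-0.60) and Myh11 (-0.59). These values describe 9 arrays in 3 groups, which share group differences and processing. Outside the group, the genes whose values followed the mean of the 8 most closely over 9 arrays were Bag4 (r = 0.97), Sowahc (0.95), Klhl5 (0.95), Wdfy1 (0.94) and Fcor (0.92). Acta2 itself correlated with that mean at 0.95, Myl9 at 0.84 and Pdgfrb at -0.19. Bag4 averaged 6.45 ± 0.14 in controls, 6.07 ± 0.01 in early and 6.27 ± 0.07 in late mice (SD, n = 3).

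Other genes of the contractile apparatus were read from a list of 24 on the array, of which 23 were tested. In early mice 0 of 23 passed against controls, where 1.19% of all genes did. At an unadjusted p under 0.05 (limma) 5 were lower and 1 higher, against 9.89% and 8.64% of all genes. Negative differences were seen in 20, beside 54.1% of all genes, with a median of -0.28 beside -0.03. Smtn, which encodes smoothelin, a cytoskeletal protein of contractile smooth muscle, differed by -0.96 ± 0.25 (adjusted p = 0.131; 0.0126 without early 3, and 0.000993 to 0.364 over its alternatives). In late mice 0 passed, where 0.206% of all genes did, and the median was -0.17. At an unadjusted p under 0.05 (limma) 5 were lower and 3 higher, against 8.44% and 8.82% of all genes. Of all genes tested 11.5% passed between early and late mice (6.23% lower and 5.31% higher in early mice). In this list the differences ran from -0.995 to 1.55, with 14 negative and 9 positive and a median of -0.12. At an unadjusted p under 0.05 (limma) 5 were lower and 4 higher, against 18.4% and 15.8% of all genes. The genes that passed were 3 of 23, all lower in early than in late mice. They were Tns1, a linker of actin to focal adhesions (-0.995 ± 0.18, adjusted p = 0.0196), Synpo2, an actin-bundling protein that fibres also hold (-0.59 ± 0.13, adjusted p = 0.0293), and Actn1, an actin crosslinker (-0.90 ± 0.23, adjusted p = 0.0435). None of the 3 passed against controls. Synpo2 differed from controls by -0.18 in early and 0.42 in late mice, Actn1 by -0.33 and 0.57, and Tns1 by -0.56 and 0.43, so for Synpo2 and Actn1 the late side of the gap was the larger. Fits of only the groups compared ended each call (adjusted p = 0.107, 0.102 and 0.0765), and so did leaving out any of several arrays. Tns1 had adjusted p = 0.0534 to 0.0719 without early 1, early 2 or late 2, and with the mean of its probe sets it differed by -0.37 (adjusted p = 0.175). Synpo2 had adjusted p = 0.0518 to 0.0913 without control 2, control 3, early 1, early 2 or any late array. Actn1 had adjusted p = 0.0565 to 0.131 without control 2, control 3, early 1, early 2 or any late array, 0.0548 with arrays centred on their medians and 0.0816 with no filter.

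Of the regulators that act through serum response factor, 11 of 16 on the array were tested; Myocd, which encodes myocardin, the smooth muscle partner, was dim with a mean of 2.49. Against controls 0 of the 11 passed by limma in early or late mice, where 1.19% and 0.206% of all genes did. At an unadjusted p under 0.05, 3 and 0 were lower in early and late mice, against 9.89% and 8.44% of all genes. The early difference was -0.97 ± 0.33 for Srf itself (adjusted p = 0.191) and, for its partner Mrtfa, -1.16 ± 0.39 (adjusted p = 0.184). Without early 3 both passed (adjusted p = 0.00088 and 0.0248; 0.00084 to 0.618 and 0.0029 to 0.458 over their alternatives). For Srf the sign against late mice depended on the probe set, -0.85 on the brightest and 0.52 when sets ending in _s_at or _x_at were left out. Between early and late mice 1 of the 11 passed, beside 11.5% of all genes. The differences of the list ran from -1.63 to 1.87, with 6 positive and 5 negative and a median of 0.11. At an unadjusted p under 0.05 (limma) 1 was higher and 2 lower, against 15.8% and 18.4% of all genes. The gene that passed was Klf4, a repressor of contractile genes (-1.63 ± 0.40, adjusted p = 0.0383, lower in early mice). Klf4 differed from controls by -0.76 in early and 0.86 in late mice. It had adjusted p = 0.0577 with the replicate number as a block, 0.0974 in a fit of only these groups, 0.0865 with no filter, 0.0515 with array weights and 0.0504 to 0.107 without any 1 control, early 1, early 2, late 1 or late 2.

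Of 16 further pericyte genes on the array 13 were tested, and 0 passed against controls in early or late mice (2 and 3 lower, 0 and 1 higher at an unadjusted p under 0.05). At that p (limma) 9.89% and 8.44% of all genes were lower and 8.64% and 8.82% higher, and 1.19% and 0.206% passed. The medians were -0.11 and -0.16. The late differences ran from -1.50 to 0.67, with 9 of 13 negative. Mcam, an adhesion molecule of mural and endothelial cells, had an early difference of -1.30 ± 0.33 (adjusted p = 0.117) and passed without early 3 (-1.53, adjusted p = 0.0187; 0.011 to 0.365 over its alternatives). Abcc9, a subunit of the ATP-sensitive potassium channel of pericytes that fibres also hold, differed by -0.56 ± 0.19 (adjusted p = 0.191). Between early and late mice 1 of 13 passed, beside 11.5% of all genes. It was Rgs4, a relative of Rgs5, which was lower in early than in late mice (-0.72 ± 0.19, adjusted p = 0.0454). The list as a whole was mixed in this comparison. Its differences ran from -1.05 to 1.68, with 8 positive and 5 negative and a median of 0.05. At an unadjusted p under 0.05 (limma) 2 were higher and 3 lower, against 15.8% and 18.4% of all genes. Rgs4 averaged 6.57 ± 0.18 (SD, n = 3) in controls, 6.52 ± 0.24 in the early group and 7.24 ± 0.27 in the late group, so early mice and controls lay together and late mice above them (0.67 against controls, adjusted p = 0.15). The early-late difference had adjusted p = 0.0659 with the replicate block, 0.121 in a fit of only these groups, 0.0502 with arrays centred on their medians, 0.0738 with no filter and 0.0698 to 0.135 without any 1 control, early 1, early 2, late 1 or late 2.

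The ligands of the PDGF receptors gave 1 call, in early against late, where 11.5% of all genes passed. Pdgfb, the ligand that recruits pericytes, averaged 9.18 ± 0.05 (SD, n = 3) in controls, 9.69 ± 0.45 in the early group and 8.39 ± 0.31 in the late group, and was 1.30 ± 0.24 higher in early than in late mice (adjusted p = 0.0197). Its differences from controls were 0.51 ± 0.24 in early (adjusted p = 0.291; 0.04 without early 3) and -0.79 ± 0.24 in late mice (adjusted p = 0.169). The early-late call was lost without early 1, early 2, late 1 or late 2 (adjusted p = 0.0514 to 0.0612) and in a fit of only these groups (0.0874). The other 4 PDGF genes, of 5 tested, did not pass in any comparison. In the Notch pathway 0 of 12 tested genes passed in any of the 3 comparisons (1, 0 and 2 lower and 0, 1 and 1 higher at an unadjusted p under 0.05 for early and late against controls and early against late). Nrarp, which Notch signalling induces and which feeds back on it, had an early difference of -1.10 ± 0.29 (adjusted p = 0.131; 0.0448 without early 3). Jag1, a Notch ligand of vessel walls, stood 0.62 ± 0.18 lower in early than in late mice (-0.62, adjusted p = 0.0551; 0.0463 without early 3). Among 10 receptors and effectors of vascular tone 0 passed in any comparison (4, 2 and 1 lower and 0, 0 and 0 higher at an unadjusted p under 0.05), and Ptger3, a prostaglandin E receptor, had the smallest p of these in early mice (-1.85 ± 0.43, adjusted p = 0.0965; 0.0467 without early 3). Of all genes, in the same order of comparisons, 9.89%, 8.44% and 18.4% were lower at an unadjusted p under 0.05 (limma). Higher at that p were 8.64%, 8.82% and 15.8%, and 1.19%, 0.206% and 11.5% passed.

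Among 14 tested relatives of the 10 genes (other actins, myosins, calponins, transgelins and leiomodins), 0 passed against controls in early or late mice, with medians of -0.16 and -0.22. Of all genes 1.19% and 0.206% passed in these comparisons. Actb, a cytoplasmic actin, was 0.70 ± 0.16 higher in early than in late mice (adjusted p = 0.031), with -0.09 in early and -0.80 in late mice against controls. In a fit of only these groups the adjusted p was 0.0962. With the mean of its probe sets the difference was 0.45 (adjusted p = 0.176), and without control 2, control 3, early 1, early 2, late 1 or late 2 the adjusted p was 0.0576 to 0.0904. Actg1, the other cytoplasmic actin, differed by -0.57 ± 0.15 in early (adjusted p = 0.128; 0.0422 without early 3) and -0.60 ± 0.15 in late mice (adjusted p = 0.12) against controls. Actins are near-identical in their coding sequence, so their probe sets may read one another's transcripts.

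Markers of other cells were read beside these genes. The 16 endothelial genes, all tested, had early medians of -0.48 to -0.15 against the control mean, and their summed log2 level was 12.36 to 12.69 in early mice, 12.73 to 13.02 in controls and 12.39 to 12.79 in late mice. Of 5 Schwann cell genes on the array 4 were tested, Mag being dim at 2.41; their summed level was 11.35 to 11.69 in early mice, 12.15 to 12.54 in controls and 11.88 to 12.44 in late mice. Of 7 adipocyte genes 6 were tested, Lep being dim at 3.06; their sum was 15.20 to 15.46 in early mice, 15.74 to 16.01 in controls and 15.55 to 16.12 in late mice. All 13 fibroblast genes were tested, with sums of 16.78 to 17.06 in early mice, 16.91 to 17.16 in controls and 16.39 to 16.82 in late mice. Of 11 macrophage genes 10 were tested, Itgam being dim at 2.72. Their sums were 12.52 to 13.87 in early mice, 12.68 to 13.06 in controls and 12.25 to 12.88 in late mice. Against controls 8 of 10 were higher in early mice (median 0.19), as were 4451 of all 9697 genes. At an unadjusted p under 0.05 (limma) 0 of the 10 differed. The list medians were 0.68, 0.33 and -0.31 in early 1, 2 and 3 and -0.19 to 0.35 in controls, so the early arrays did not go 1 way. Against late mice 9 of 10 were higher in early mice (median 0.57), as were 4560 of all genes. The 8 genes of the group summed to 13.41 to 13.80 in early mice, 13.89 to 14.10 in controls and 13.84 to 14.10 in late mice. All these sums add linear values before the log, so the brightest genes weigh most. In the group this was Rgs5, at 13.01 in controls on its tested probe set, beside 7.90 for Myh11. Probe sets 1420941_at and 1420940_x_at of Rgs5 were higher in early than in late mice (1.09 and 1.02), unlike the tested set. The 10 skeletal fibre genes, all bright, bear out the tissue label, with medians between -0.19 and 0.11 over the control mean in all arrays. The summed levels of endothelial, Schwann cell and adipocyte markers thus lay below all controls in every early array. That of the genes of the group did so too. The adipocyte sum rests mostly on Car3 and Fabp4 (14.81 and 14.39 in controls), so it says little of the dimmer genes. On medians over the list, adipocyte genes stood at -0.88 to -0.74 in early mice and -0.25 to 0.41 in controls. The endothelial medians of early mice overlapped with those of controls, at -0.19 to 0.16. The Schwann cell and adipocyte sums, like that of the group, also lay lower in every early than in every late array, beside the comparison in which Myh11 passed.

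Single markers of other cells passed between early and late mice as well, as did 11.5% of all genes. Vwf, which encodes the von Willebrand factor of endothelium (-1.04 ± 0.24, adjusted p = 0.0327), and Mbp, a myelin protein (-0.80 ± 0.22, adjusted p = 0.0498), were lower in early than in late mice. C1qa, a complement gene of macrophages, was higher (1.70 ± 0.46, adjusted p = 0.0468). The 16 endothelial genes were mixed in this comparison. Their differences ran from -1.04 to 1.10, with 10 negative and 6 positive and a median of -0.08. Vwf lost its call without any 1 array other than early 3 (adjusted p = 0.0551 to 0.0966), Mbp without any 1 array (0.0534 to 0.14) and C1qa without any 1 array other than early 3 (0.0585 to 0.124). With the replicate block Mbp had adjusted p = 0.0731 and C1qa 0.0574. Over all alternatives the adjusted p ran from 0.00115 to 0.105 for Vwf, 0.0441 to 0.14 for Mbp and 0.0113 to 0.124 for C1qa. The part of these other cells in the values of Myh11 and the other genes was not tested.

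**Figure D4:**
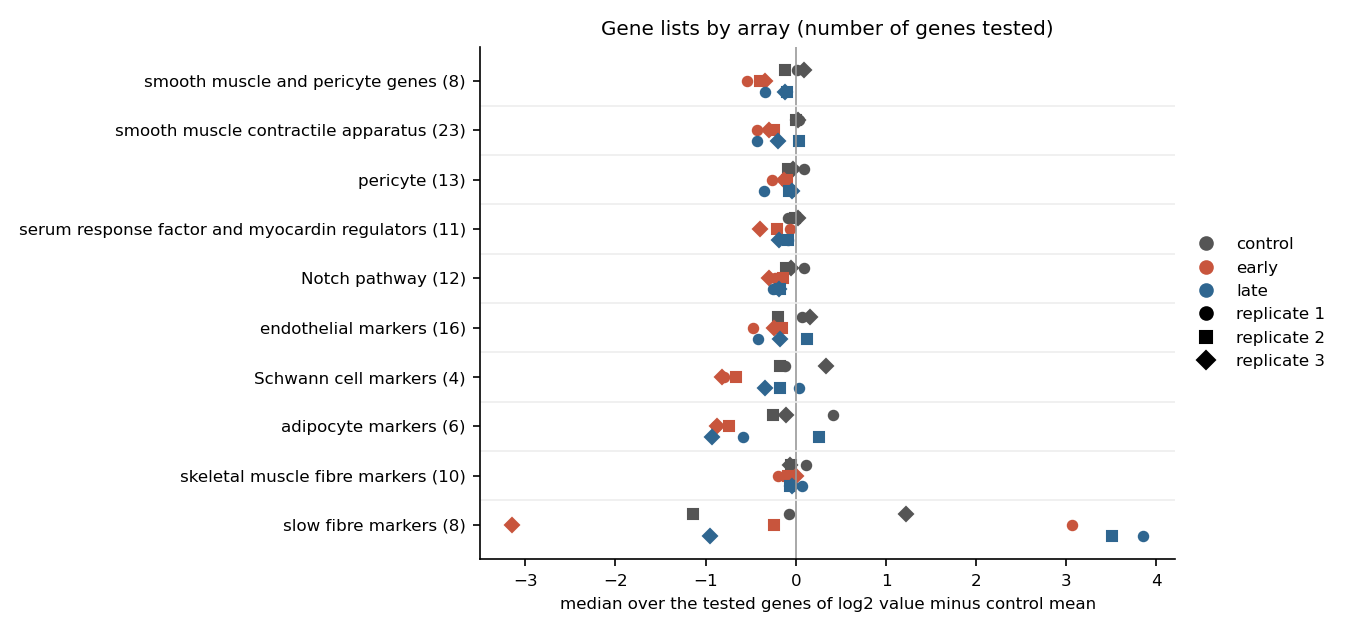
Median over each list of the log2 value minus the control mean of the gene, 1 symbol per array, for the 8 tested genes and for lists of related pathways and other cell types. The early arrays of the group lie at -0.54 to -0.34, and those of the Schwann cell and adipocyte lists at -0.82 to -0.67 and -0.88 to -0.74; the slow fibre list spreads from -3.15 to 3.85.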

How the data were processed

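Biotin-labelled RNA of quadriceps was read on Affymetrix arrays, per the labels' protocols. The authors deposited log2 expression values; GCRMA is named in the submitters' processing notes without a version. It equalises the arrays' distributions, which hides any shift shared by most genes. The table held 45101 probe sets and 9 arrays; array medians lay between 3.41 and 3.45, and array numbers, 3 a group, limit the precision. H2-K1, a class I gene, averaged 10.52 in the control, 14.66 in the early and 13.87 in the late group.

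Probe sets naming 1 gene (34945; 932 named several and were left out) were kept where log2 was above 5 in at least 3 arrays, and the brightest set stood for its gene (9697 genes). Symbols matched a GRCm38.p6 table with 0 updates. Group means of all 9 arrays were fitted with limma 3.58.1 in R 4.3.3 (lmFit, eBayes; 6 residual and 2.84 prior degrees of freedom). Adjusted p values are from this limma fit, by Benjamini-Hochberg over all genes; a gene was called at an adjusted p under 0.05. Values are log2 expression, and differences are given ± SE. All probe sets naming 1 gene were also fitted with no filter. The fit was tested on simulated data. Nothing says more of the replicates than separate animal samples, so the p values reflect how far these samples spread, which may be technical.

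Same-numbered early and late arrays deviated together (correlations 0.168, 0.201 and 0.16), though no label says what they share. The main fit and its p values took no account of this. The replicate number entered only in an alternative fit, as a block, which stands beside results whose call it changes. Same-numbered early and control arrays gave 0.35, 0.11 and -0.0391, the first of these being the largest correlation of any pair. Late and control arrays gave 0.0847, -0.165 and -0.11. For each of these other pairs of groups 1 or more correlations were thus under 0.1. The genes and the 14 other lists were chosen with earlier results of these data known. Named are all 10 genes, at most 3 per other list and comparison with the smallest p, and the 5 genes most like the group's mean. Alternatives were the filter, the probe set rule, centring, the groups fitted, the block, array weights, a trend and each array left out.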

Additional observations from a re-analysis of the deposited data

Results flagged for a closer look

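Myh11 stood out because its differences from controls were not alike in early and late mice: the test of early against late gave -1.28 on the log2 scale (adjusted p = 0.00578, limma), lower in 3 of 3 early arrays than in every late array. Among the other contractile genes the same test picked out Tns1 (-0.995), Synpo2 (-0.59) and Actn1 (-0.90), each lower in every early than in every late array. Klf4 (-1.63), a regulator of contractile genes, and Rgs4 (-0.72), a pericyte gene, were also lower in early than in late mice; for Rgs4 early mice lay with the controls. Pdgfb (1.30) and Actb (0.70) were higher in every early than in every late array. Of all genes tested 11.5% passed this test. The lists of contractile, regulator, pericyte and endothelial genes held differences of both signs in it. Their medians were -0.12, 0.11, 0.05 and -0.08. Among markers of other cells Vwf (-1.04) and Mbp (-0.80) were lower and C1qa (1.70) higher in early than in late mice. Fits of only the early and late groups ended all of these calls (adjusted p = 0.0765 to 0.121) except that of Myh11, which kept it. Groups of 3 arrays are too small for a test of single arrays that stand apart.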

How the results depend on the processing

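The count of genes called in the group moved with array weights and without early 3. With array weights, whose estimation stopped before it had converged, 4, 2 and 3 genes were called in early against control, late against control and early against late. Leaving out 1 array gave 0 to 3, 0 to 1 and 1 to 3 in the same order, and every other alternative, the replicate block included, gave the counts reported, 0, 0 and 1. The median of early against late was -0.15 with the mean of all passing probe sets, and that of late against control was -0.089 with no filter, which adds Cnn1 and Lmod1. Leaving out 1 array the medians ran from -0.43 to -0.28 (early against control), -0.30 to -0.11 (late against control) and -0.48 to -0.18 (early against late). With the replicate block Myh11 kept its difference of -1.28 between early and late mice and its call, and beside Klf4, Rgs4, Mbp and C1qa it changed no call of a named gene. For Rgs5 the mean of the probe sets gave -0.29 in late against control and 0.16 in early against late, and the added sets gave -0.89 and -1.14, and 1.02 and 1.09, with 0.13 for 1420940_x_at in early against control. Abcc9 (0.052) and Tns1 (-0.099) changed sign in late against control with the mean of the probe sets, and Srf (0.52) in early against late without sets ending in _s_at or _x_at, a choice made after seeing the data. Leaving out 1 array turned differences near 0: Cspg4 (-0.45 to 0.50) and Pdgfrb (-0.051 to 0.11), Actb (-0.17 to 0.022) and Rgs4 (-0.18 to 0.056) in early against control, Tagln (-0.082 to 0.18), Rgs5 (-0.0078 to 0.19), Mbp (-0.33 to 0.038) and Abcc9 (-0.18 to 0.041) in late against control, and Notch3 (-0.30 to 0.036) and Actg1 (-0.023 to 0.11) in early against late. The cause was not tested. Over all genes the calls were 115, 20 and 1119 in the order above; the replicate block gave 62, 5 and 1114, fits of only the groups compared 61, 12 and 38, no filter 56, 20 and 584, array weights 3335, 1037 and 3534, every passing probe set 163, 26 and 1803, and leaving out 1 array 6 to 1756, 5 to 58 and 143 to 2960, the highest each time without early 3. Without sets ending in _s_at or _x_at 12 genes passed in late against control. Probe sets near the bottom of the scale limit what can be said of Cnn1 and Lmod1.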
